A study of Mus musculus with 30 samples.

Results

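The genes described here are the enzymes and partner proteins of fatty acid beta-oxidation in mitochondria and peroxisomes, measured by RNA sequencing of whole mouse hearts. They were chosen by gene symbol in the GENCODE mouse annotation, with the carnitine acyltransferases of the mitochondrial membranes left out. All 32 genes of the list were found among the 55487 gene identifiers of the count table, and all 32 passed the filter on low counts in both cohorts. The genes used to check the label, Acadm and Hadha, were among the more abundant, in control hearts, as described with the levels.

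Beta-oxidation shortens an acyl-CoA in a repeating cycle of dehydrogenation, hydration, a further dehydrogenation and thiolytic cleavage, and each turn releases acetyl-CoA. In the mitochondrion, dehydrogenases of different chain-length preference start the cycle and hand their electrons to the electron transfer flavoprotein. Peroxisomes run a parallel pathway for very long and branched chains. The adult heart is known for drawing most of its energy from fatty acids, and pressure overload and heart failure are known for lower expression of these genes.

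The study asked what the carnitine acyltransferase Cpt1a does in the overloaded heart. The mice had a clip placed on the aorta (transverse aortic constriction, TAC), which raises the load on the left ventricle, or sham surgery, and the hearts were taken 8 weeks later. In the first cohort, mice with the genotype CPT1a floxed (FF_sham and FF_TAC) were set against mice with a cardiac specific CPT1a knockout (KO_sham and KO_TAC), with n = 4 hearts in each of these 4 groups. In the second, C57Bl/6 mice received PBS (PBS_sham and PBS_TAC, n = 3 each) or AAV9.Cpt1a, an adeno-associated virus that carries Cpt1a (AAV_sham and AAV_TAC, n = 4 each). The design text names the vector AAV9.cTNTN.Cpt1a and calls both the loss and the gain of Cpt1a cardiac-specific. The labels used here do not give the driver of the knockout, the age or sex of the mice, or which mouse carried the 0.016 inch and which the 0.018 inch clip. The titles of the KO_TAC samples read both TAC and sham, while their genotype and treatment labels give knockout and constriction, which were used. Each library is numbered within its group as in its title. Nothing in the labels says in words that libraries of a group are separate animals, so the p-values measure the spread between these libraries.

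Library totals ran from 14839758 to 22070373 counts. Levels are given as CPM, a gene's counts relative to the library total as scaled by the trimmed mean of M-values (TMM), and gene against gene only as CPM per kilobase of the longest coding transcript. Cpt1a itself, counted over the whole gene, was at 37.8, 43.9, 52.7 and 45.9 CPM in FF_sham and at 19.6, 11.9, 14.1 and 11.1 CPM in KO_TAC. This count is not limited to a deleted exon and includes every cell type of the heart. Cpt1a went against the label in 3 libraries: the library labelled KO_sham 2 held 46.3 CPM against 20.4 to 23.7 in the other KO_sham libraries, and the libraries labelled FF_TAC 2 and FF_TAC 3 held 20.3 and 16.2 CPM against 48.9 and 34.0 in the other FF_TAC libraries. The same 3 libraries and the 4 KO_TAC libraries had summed haemoglobin transcripts of 1.40 to 51.1 CPM, and the other 9 libraries of the floxed cohort 384 to 678 CPM. For the floxed cohort, the counts of members called and their medians are also given without these 3 libraries. So are the values of named genes in comparisons with called members. In those fits every haemoglobin-low library is a KO_TAC library, and FF_TAC keeps only the libraries labelled 1 and 4. The KO_TAC comparisons and the interaction then cannot tell KO_TAC apart from low haemoglobin. Summed levels, per-library values and marker ranges cover all libraries. In the AAV9 cohort, Cpt1a was at 56.3 to 88.4 CPM in AAV_sham and at 37.4, 50.8 and 68.0 CPM in PBS_sham. These groups overlapped only through PBS_sham 3, the last of these values. Under load, Cpt1a was at 44.8 to 62.7 CPM in AAV_TAC and at 40.3 to 61.6 CPM in PBS_TAC. The library labelled PBS_sham 3 stood apart in the members and in the defining markers of heart muscle, as described with that cohort. The cardiomyocyte markers Myh6, Tnnt2, Tnni3, Actc1, Ryr2, Pln, Myl2 and Myl3 were present in all groups, and the liver markers Alb and Serpina1a were at 0 in the floxed cohort.

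**Figure D1:**
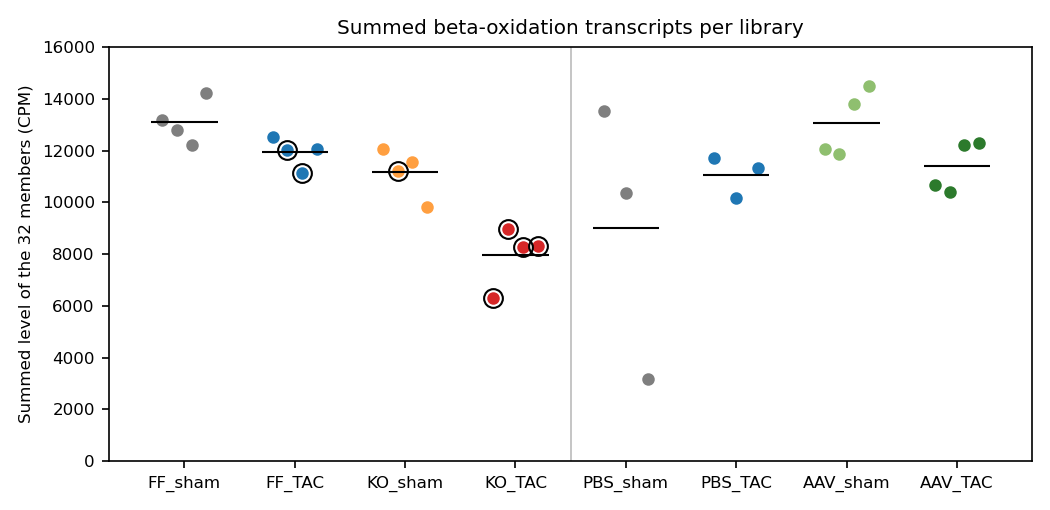
Summed CPM of the 32 beta-oxidation genes in each of the 30 libraries, by group. Points are libraries, horizontal lines are group means, and black rings mark libraries with summed haemoglobin transcripts under 100 CPM. The 4 KO_TAC libraries lay between 6304 and 8972 CPM, and PBS_sham 3 lay lowest of all libraries at 3186 CPM.

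The members ranged widely in level in the FF_sham hearts. Ech1, the dienoyl-CoA isomerase that reshapes double bonds of unsaturated chains, was highest at 1054 CPM per kilobase of the longest coding transcript. Acaa2, the thiolase that releases acetyl-CoA, followed at 644, and Acadm, the medium-chain acyl-CoA dehydrogenase, at 611 CPM per kilobase. The peroxisomal genes lay lower on this scale, from Scp2 (a thiolase and sterol carrier protein) at 103 down to Abcd2 (a transporter of very long chains) at 1.21 CPM per kilobase. The order depends on the length used. The plan named kilobases of exon, but the order on that scale was worked out after the one above had been seen. Per kilobase of all annotated exons, Acaa2 was highest at 644, ahead of Ech1 at 585 and Acadl at 538. Acadm was the fifth at 319.7 CPM per kilobase of exon. The 32 members together summed to 13111 ± 851 CPM (SD, n = 4) in FF_sham, 11937 ± 587 in FF_TAC, 11169 ± 956 in KO_sham and 7961 ± 1151 in KO_TAC. The highest KO_TAC library, at 8972 CPM, was below every other library of the floxed cohort.

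Upstream sequences are shown for Acadm and Acadvl because both were lower in KO_TAC in each comparison and both hold AGGTCA, the half-site of many nuclear receptors. They are the 250 bases before the start of each gene on GRCm38.p6, from RefSeq, in the gene's direction, with AGGTCA or its reverse complement TGACCT in capitals. The Acadm window is chr3:153944644-153944893 and the Acadvl window chr11:70015429-70015678, both on the minus strand. The stretch between Hadha and Hadhb, the divergent genes for the subunits of the trifunctional protein, is shown whole because both subunits fell together. It was cut between the GENCODE gene models, chr5:30155163-30155247 on the plus strand, 85 bases long. Hadha is transcribed away on the minus strand and Hadhb on the plus strand. The RefSeq starts differ from these, with windows before the start of chr5:30154981-30155230 for Hadha and chr5:30155003-30155252 for Hadhb.
Acadm: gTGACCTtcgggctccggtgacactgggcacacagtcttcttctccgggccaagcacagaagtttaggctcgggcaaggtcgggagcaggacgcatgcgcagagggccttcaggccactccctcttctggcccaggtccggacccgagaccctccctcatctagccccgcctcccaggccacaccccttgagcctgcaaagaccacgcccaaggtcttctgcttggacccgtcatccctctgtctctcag
Acadvl: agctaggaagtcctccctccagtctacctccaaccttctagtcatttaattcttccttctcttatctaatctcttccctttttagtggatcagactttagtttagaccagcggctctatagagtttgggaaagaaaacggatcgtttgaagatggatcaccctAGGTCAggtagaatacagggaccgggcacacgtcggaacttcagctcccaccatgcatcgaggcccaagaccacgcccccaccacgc
Hadha-Hadhb: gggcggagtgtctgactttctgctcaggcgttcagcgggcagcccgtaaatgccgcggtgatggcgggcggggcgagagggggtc
Of the 32 members, 27 matched a RefSeq promoter entry. Within the 250 bases before the start, searched on both strands, none of the 27 held the direct repeat of AGGTCA with 1 base of any kind between the copies, the element bound by PPAR and RXR receptors, which was present in 0.0335% of all 32851 promoters. None held TCAAGGTCA, the element bound by estrogen-related receptors, against 0.387% of all promoters. The half-site AGGTCA, which is contained in both longer motifs and was added to the search after these results, was present for 4 members (Acadm, Acadvl, Echs1 and Scp2), or 14.8%, against 14% of all promoters. These are matches of letters in a short window. The median GC content of the member windows was 60% against 52.4% over all promoters.

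KO_TAC against FF_TAC compares knockout with floxed hearts, both after TAC, with the clip size of each mouse not given. In KO_TAC against FF_TAC, 18 of 32 members fell and 0 rose at an adjusted p under 0.05 (edgeR quasi-likelihood test, Benjamini-Hochberg over all genes tested), where 14.3% of all 15596 tested genes passed and 6.80% were lower. The median log2 fold change of the members was -0.51, against 0.04 over all tested genes. For 19 members, all KO_TAC libraries lay below all FF_TAC libraries, which held for 6.76% of all tested genes. Without the 3 libraries whose Cpt1a went against their labels, 18 members were called, 16 of them the same genes, where 22.4% of all tested genes were called and 10.8% were lower, and the median was -0.57. Of the members, 24 then did not overlap, against 19.4% of all tested genes. In whole hearts, fewer cells of a type and less RNA per cell cannot be told apart.

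The markers of other cell types also differed in these hearts. The summed fibroblast markers Col1a1, Col1a2, Pdgfra, Dcn and Lum were at 1681 to 1722 CPM in KO_TAC and at most 1169 CPM in the other 3 floxed-cohort groups. The 5 endothelial markers summed to 449 to 626 CPM in KO_TAC and 609 to 879 CPM in those groups, and the 8 cardiomyocyte markers to 50264 to 79391 CPM against 59262 to 73471 CPM. The 4 macrophage markers summed to 138 to 177 CPM in KO_TAC and 88.4 to 205 CPM in the other 3 groups, and the haemoglobin transcripts were low in all 4 of its libraries. The atrial markers Myl7, Myl4, Sln and Bmp10 varied widely between libraries, summing to 3.63 to 8481 CPM in KO_TAC and 1.71 to 2800 CPM in the other 3 groups. Transcripts of the mitochondrial genome made up 12.1 to 18.7% of counts in KO_TAC and 20.9 to 26.0% in the other floxed-cohort groups. The part of these differences in the members' levels was not tested.

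Among the acyl-CoA dehydrogenases, 5 of 7 fell in KO_TAC against FF_TAC. Acadvl, which opens the cycle for very long chains, was at 532.6, 586.8, 569.1 and 650.5 CPM in FF_sham, 569.8, 462.2, 473.2 and 546.8 in FF_TAC, 548.7, 534.1, 468.8 and 437.1 in KO_sham, and 262.7, 268.8, 324.4 and 356.5 in KO_TAC. Every KO_TAC library was below every other library of the cohort. The log2 fold change to FF_TAC was -0.76 (SE 0.12, edgeR adjusted p = 0.00167), a mean of 59.1% of the FF_TAC mean. Acadvl overlaps Dvl2 on the opposite strand and the strand setting of the counting is not given in the sources used here, so reads of the overlap cannot be told apart.

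Acadm was at 1328, 1199, 1115 and 1361 CPM in FF_sham, 1165, 1276, 1114 and 1175 in FF_TAC, 1149, 1068, 1156 and 962.2 in KO_sham, and 582.6, 836.5, 830.9 and 784.5 in KO_TAC. The highest KO_TAC library was again below the lowest of the other 12. Against FF_TAC, Acadm fell by 0.64 (SE 0.12, edgeR adjusted p = 0.00301). Acadl, a long-chain dehydrogenase of the same family, did not pass the test, at a log2 fold change of -0.18 (SE 0.14, edgeR adjusted p = 0.404), with KO_TAC at 88.4% of the FF_TAC mean. The ratio of Acadm to Acadl CPM was accordingly 0.818 ± 0.083 (SD, n = 4) in KO_TAC, from 0.725 to 0.888, while the lowest ratio in any other library of either cohort was 1.008. This ratio was singled out after its values were seen. Acads, Acad9 and Acad11 were the other dehydrogenases that fell, and Acad10 did not pass the test.

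The trifunctional protein and the later matrix steps gave 4 of 6 members lower. Hadha, its hydratase and dehydrogenase subunit, was at 1647, 1653, 1558 and 1870 CPM in FF_sham, 1607, 1431, 1432 and 1542 in FF_TAC, 1514, 1456, 1458 and 1252 in KO_sham, and 732.6, 989.6, 1018 and 1054 in KO_TAC. KO_TAC lay apart from the 12 other libraries, and KO_TAC 1 was the lowest. The log2 fold change to FF_TAC was -0.66 (SE 0.11, edgeR adjusted p = 0.00227). Hadhb, the thiolase subunit, fell by 0.57 on the log2 scale (SE 0.13, edgeR adjusted p = 0.0102). The ratio of Hadha to Hadhb CPM was 1.24 ± 0.06 (SD, n = 4) in KO_TAC and had group means of 1.27 to 1.40 in the other 7 groups, with overlapping libraries.

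Hadh, the dehydrogenase that oxidises shorter 3-hydroxyacyl-CoAs, had the most negative log2 fold change of the list against FF_TAC with all libraries fitted, close to those of Acacb, Acaa2 and Ehhadh. Its level was 638.5, 622.9, 561.8 and 677.5 CPM in FF_sham, 546.3, 516.0, 504.0 and 579.2 in FF_TAC, 553.8, 495.9, 516.3 and 424.1 in KO_sham, and 266.6, 272.1, 255.6 and 317.2 in KO_TAC. The 4 KO_TAC values lay close together and far below all others. The log2 fold change was -0.95 (SE 0.10, edgeR adjusted p = 0.000277), so that KO_TAC held 51.8% of the FF_TAC mean. Acaa2 was at 940.3, 1025, 879.3 and 1060 CPM in FF_sham, 913.6, 697.8, 641.6 and 756.0 in FF_TAC, 897.8, 764.7, 844.7 and 700.5 in KO_sham, and 406.9, 455.9, 341.8 and 402.8 in KO_TAC. No KO_TAC library reached the lowest of the others. Its log2 fold change to FF_TAC was -0.90 (SE 0.13, edgeR adjusted p = 0.000781). The enoyl-CoA hydratase Echs1 and the dehydrogenase Hsd17b10 did not pass the test, with log2 fold changes of -0.26 (SE 0.11) and -0.12 (SE 0.17).

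Of the 5 auxiliary enzymes, which prepare unsaturated chains for the cycle, Ech1, Eci1 and Decr1 fell. Ech1 was at 1460, 1260, 1148 and 1473 CPM in FF_sham, 1277, 1013, 990.4 and 1096 in FF_TAC, 1161, 1130, 1134 and 915.0 in KO_sham, and 432.5, 726.5, 637.5 and 570.9 in KO_TAC. The KO_TAC values spread more than those of Hadh and still lay below all others. Against FF_TAC, Ech1 fell by 0.89 (SE 0.15, edgeR adjusted p = 0.00199). Eci2 and Decr2, which also act in peroxisomes, did not pass the test, at -0.33 (SE 0.13) and -0.20 (SE 0.11) on the log2 scale.

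The electron transfer genes were uneven. Etfdh, the membrane enzyme that passes electrons from the flavoprotein to ubiquinone, was at 641.3, 675.1, 660.1 and 747.5 CPM in FF_sham, 681.0, 611.5, 597.2 and 680.0 in FF_TAC, 607.0, 557.9, 558.3 and 486.0 in KO_sham, and 290.5, 392.5, 383.4 and 427.7 in KO_TAC. KO_TAC lay below all other libraries, and relative to FF_TAC the log2 fold change was -0.78 (SE 0.12, edgeR adjusted p = 0.00111). Etfa, a subunit of the flavoprotein, fell by 0.48 on the log2 scale (SE 0.12, edgeR adjusted p = 0.0149). The partner subunit Etfb was the 1 member with a positive fold change, 0.02 (SE 0.29, edgeR adjusted p = 0.967), and its KO_TAC libraries at 49.3, 166, 89.2 and 53.2 CPM spread from the lowest to the highest of the cohort. Etfb has a near-identical copy in the annotation, so its count is uncertain. The same holds for Hadhb, Acad9 and Acad11, which fell and also have near-identical copies. Hadha and Etfdh, which fell too, overlap a gene on the opposite strand, as Acadvl does.

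**Figure D2:**
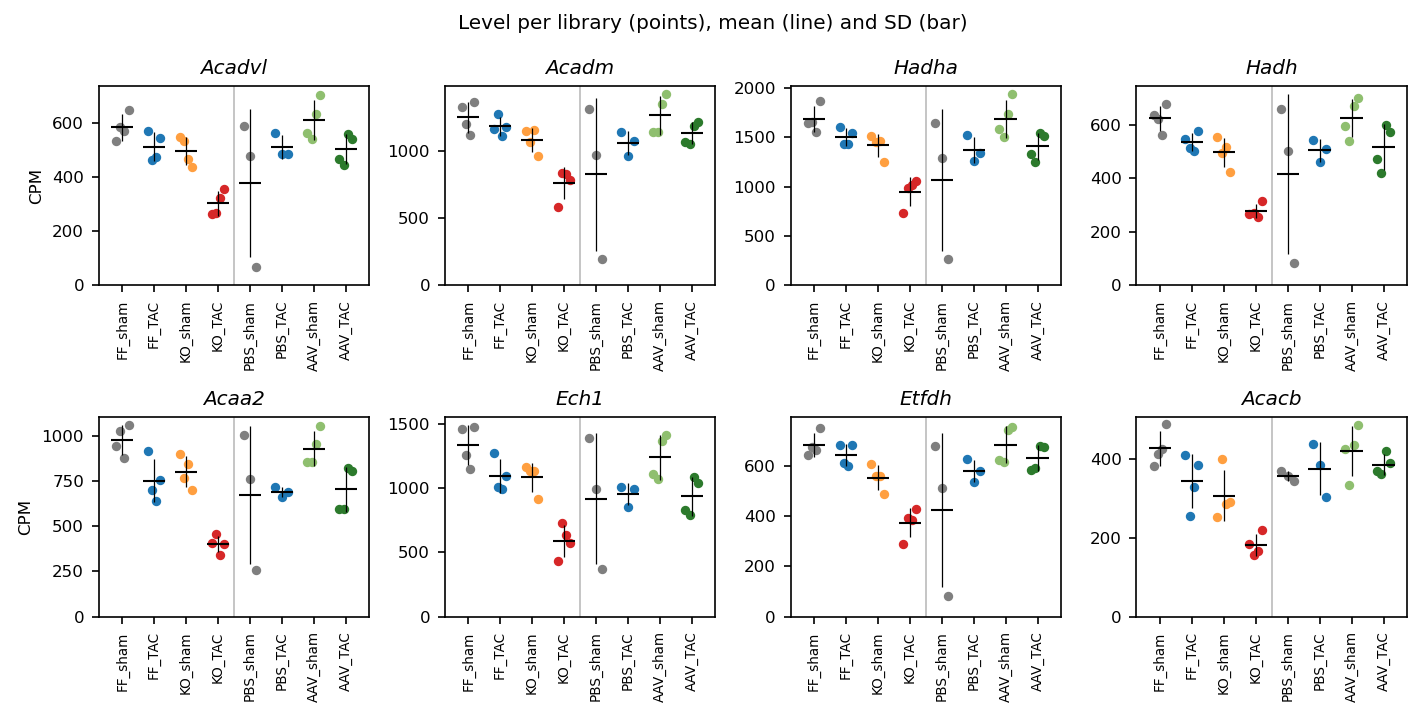
CPM of 8 members in each library of the 2 cohorts, by group, 1 panel per gene, with points for libraries, lines for group means and bars for 1 SD. In each panel the 4 KO_TAC libraries lie below the other 12 libraries of the floxed cohort, as for Hadh with 256 to 317 CPM against 424 CPM or more.

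In peroxisomes, 2 of 9 members fell in KO_TAC against FF_TAC and the median log2 fold change was -0.16. Ehhadh, the bifunctional hydratase and dehydrogenase of the peroxisomal cycle, fell by 0.90 (SE 0.20, edgeR adjusted p = 0.00959). Abcd3, the membrane transporter that admits long-chain and branched acyl-CoAs, fell by 0.68 (SE 0.13, edgeR adjusted p = 0.00365). Hsd17b4, Acaa1a, Scp2, Acox3, Pecr and Crot had log2 fold changes between -0.23 and -0.09, and Abcd2 one of -0.84 (SE 0.33, edgeR adjusted p = 0.103), and none of these 7 passed.

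Acacb and Mlycd set the level of malonyl-CoA, the inhibitor of carnitine acyltransferase, and both fell. Acacb, the acetyl-CoA carboxylase that makes it at the mitochondrial surface, was at 383.6, 414.0, 426.7 and 489.1 CPM in FF_sham, 410.5, 255.3, 329.9 and 386.2 in FF_TAC, 252.1, 400.5, 286.1 and 291.3 in KO_sham, and 184.2, 157.4, 166.2 and 221.2 in KO_TAC. The KO_TAC libraries were lowest, and the library labelled KO_sham 2 was the highest of its group. The log2 fold change to FF_TAC was -0.92 (SE 0.17, edgeR adjusted p = 0.00297). Mlycd, the decarboxylase that breaks malonyl-CoA down, fell by 0.57 (SE 0.12, edgeR adjusted p = 0.00697).

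Leaving out the library labelled KO_sham 2 and those labelled FF_TAC 2 and FF_TAC 3 changed which members led. Abcd2 was then called, with a log2 fold change to FF_TAC of -1.20 (edgeR adjusted p = 0.0297), the most negative of the list. Acacb was at -1.14, Acaa2 at -1.07, Hadh at -1.03 and Ech1 at -1.02, with edgeR adjusted p from 0.000242 to 0.00243. Ehhadh at -0.99, Abcd3 at -0.91, Acadvl at -0.89 and Etfdh at -0.88 also fell, as did Hadha at -0.75, Mlycd at -0.67, Acadm at -0.64, Hadhb at -0.56 and Etfa at -0.45, with edgeR adjusted p of at most 0.0378. Acads at -0.47 and Acad9 at -0.33 no longer passed (edgeR adjusted p = 0.0933 and 0.0943), and Acad10 at -0.68 newly did (edgeR adjusted p = 0.0121). By role, the counts became 4 of 7 dehydrogenases, 4 of 6 trifunctional and matrix members, 3 of 5 auxiliary enzymes, 2 of 3 electron transfer genes, 3 of 9 peroxisomal members and both malonyl-CoA enzymes.

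Over the whole floxed cohort, all 4 KO_TAC libraries lay below all 12 others for 12 of 32 members (Acadvl, Acadm, Hadha, Hadhb, Hadh, Acaa2, Ech1, Etfdh, Ehhadh, Abcd3, Acacb and Mlycd). The same held for 3.78% of all tested genes. Set against the 9 others that remain without the 3 libraries, it held for 17 members and for 9.47% of all tested genes. By level, 12 of the 16 members above 102 CPM per kilobase of the longest coding transcript in FF_sham fell in KO_TAC against FF_TAC, with a median of -0.63, and 6 of the 16 below, with a median of -0.34. Ordering by CPM per kilobase of exon gave 12 and 6 again, and leaving out the 3 libraries gave 11 and 7. The difference between these level groups was not tested.

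**Figure D3:**
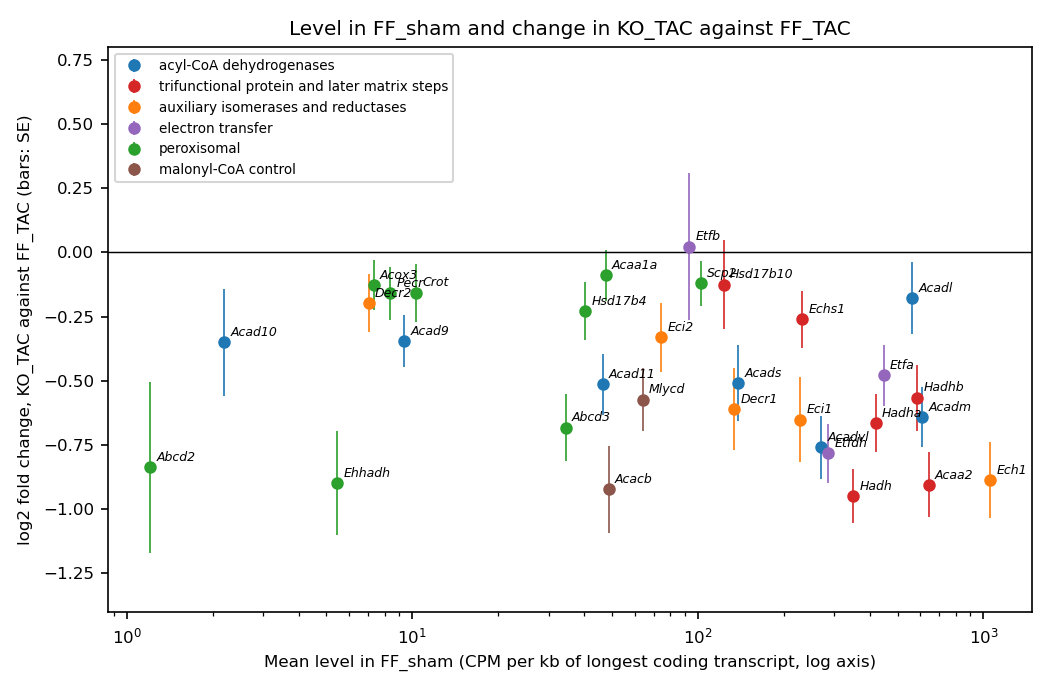
Log2 fold change in KO_TAC against FF_TAC (vertical) by level in FF_sham, in CPM per kilobase of the longest coding transcript on a log axis (horizontal), 1 point per member, coloured by role, with bars of 1 standard error from edgeR. Of the 16 members at the higher levels 12 were called, and of the 16 at the lower levels 6.

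KO_TAC against KO_sham asks what the load changed in knockout hearts. Here 16 of 32 members fell and 0 rose (edgeR, adjusted p under 0.05), against 25.8% of all tested genes called and 11.5% called lower. The member median was -0.39, against 0.02 over all genes. Abcd2 fell by 1.14 (SE 0.33, edgeR adjusted p = 0.0227), from a level of 3.59 to 7.65 CPM in KO_sham to 1.89 to 2.93 CPM in KO_TAC. Acaa2 fell by 0.997 (SE 0.13, edgeR adjusted p = 0.000547), Ech1 fell by 0.87 (SE 0.15, adjusted p = 0.00213) and Hadh fell by 0.84 (SE 0.10, adjusted p = 0.000526). Among the peroxisomal and malonyl-CoA genes, Ehhadh fell by 0.76 (SE 0.20, edgeR adjusted p = 0.0159) and Acacb fell by 0.75 (SE 0.17, adjusted p = 0.00724). For 14 members, Acaa2, Ech1, Hadh and Acacb among them, all KO_TAC libraries lay below all KO_sham libraries. The same held for 12.0% of all tested genes. Acadvl fell by 0.71 (SE 0.12, edgeR adjusted p = 0.00213) and Abcd3 fell by 0.63 (SE 0.13, adjusted p = 0.00486). The trifunctional subunit Hadha fell by 0.58 (SE 0.11, edgeR adjusted p = 0.00387) and Acadm fell by 0.51 (SE 0.12, adjusted p = 0.0081).

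By role, 4 of 7 dehydrogenases, 4 of 6 trifunctional and matrix members, 2 of 5 auxiliary enzymes, 1 of 3 electron transfer genes, 3 of 9 peroxisomal members and both malonyl-CoA enzymes fell in KO_TAC against KO_sham. Without the 3 libraries named above, 17 members were called, 13 of them the same genes, against 23.4% of all tested genes, and the median was -0.43. Abcd2 was then at -1.30, Acaa2 at -1.03, Ech1 at -0.87, Hadh at -0.85, Acadvl at -0.69, Abcd3 at -0.64, Acacb at -0.61, Hadha at -0.58 and Acadm at -0.53, with edgeR adjusted p from 0.000213 to 0.0153. By role the counts were the same except for 4 of 9 peroxisomal members. Ehhadh was 1 of those no longer called, at a log2 fold change of -0.65 (edgeR adjusted p = 0.0513). The count was 10 without KO_TAC 3 and 10 without KO_sham 1.

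KO_TAC against FF_sham, which differs in both genotype and surgery, gave 21 of 32 members lower and 0 higher (edgeR), against 33.9% of all tested genes called and 15.3% called lower. Abcd2 had a log2 fold change of -1.499 (SE 0.33, edgeR adjusted p = 0.00401) and Acaa2 one of -1.28 (SE 0.13, adjusted p = 4.98e-05). Acacb followed at -1.23 (SE 0.17, edgeR adjusted p = 0.000261). Ech1, Hadh and Ehhadh each fell by 1.17, with edgeR adjusted p = 0.000173, 3.07e-05 and 0.000955. Acadvl was at -0.95, Etfdh at -0.87, Hadha at -0.83 and Acadm at -0.72, with edgeR adjusted p = 0.000186, 0.000233, 0.000262 and 0.000665. With a term for the haemoglobin split, Abcd2 was at -0.73 and no longer passed (edgeR adjusted p = 0.358). Acadm, at -0.73 with the term, did not pass either (edgeR adjusted p = 0.0511). The other members named here still passed, with edgeR adjusted p of at most 0.0409 and Acadvl at -0.87, Etfdh at -0.78 and Hadha at -0.77. Without the 3 libraries, 23 members were called, including all 21, against 35.2% of all tested genes, and the median was -0.64. The 10 members with values above then had log2 fold changes from -1.52 (Abcd2) to -0.74 (Acadm), with edgeR adjusted p of at most 0.00256.

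These 3 comparisons share the KO_TAC libraries, so they are not independent. All 3 called 15 members, which were Acadvl, Acadm, Acad9, Acad11, Hadha, Hadhb, Hadh, Acaa2, Ech1, Decr1, Etfdh, Ehhadh, Abcd3, Acacb and Mlycd. Acads, Eci1, Etfa and Abcd2 were called in 2, and Acad10 and Echs1 in 1. The remaining 11 were called in none: Acadl, Hsd17b10, Eci2, Decr2, Etfb, Acox3, Hsd17b4, Acaa1a, Scp2, Pecr and Crot.

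**Figure D4:**
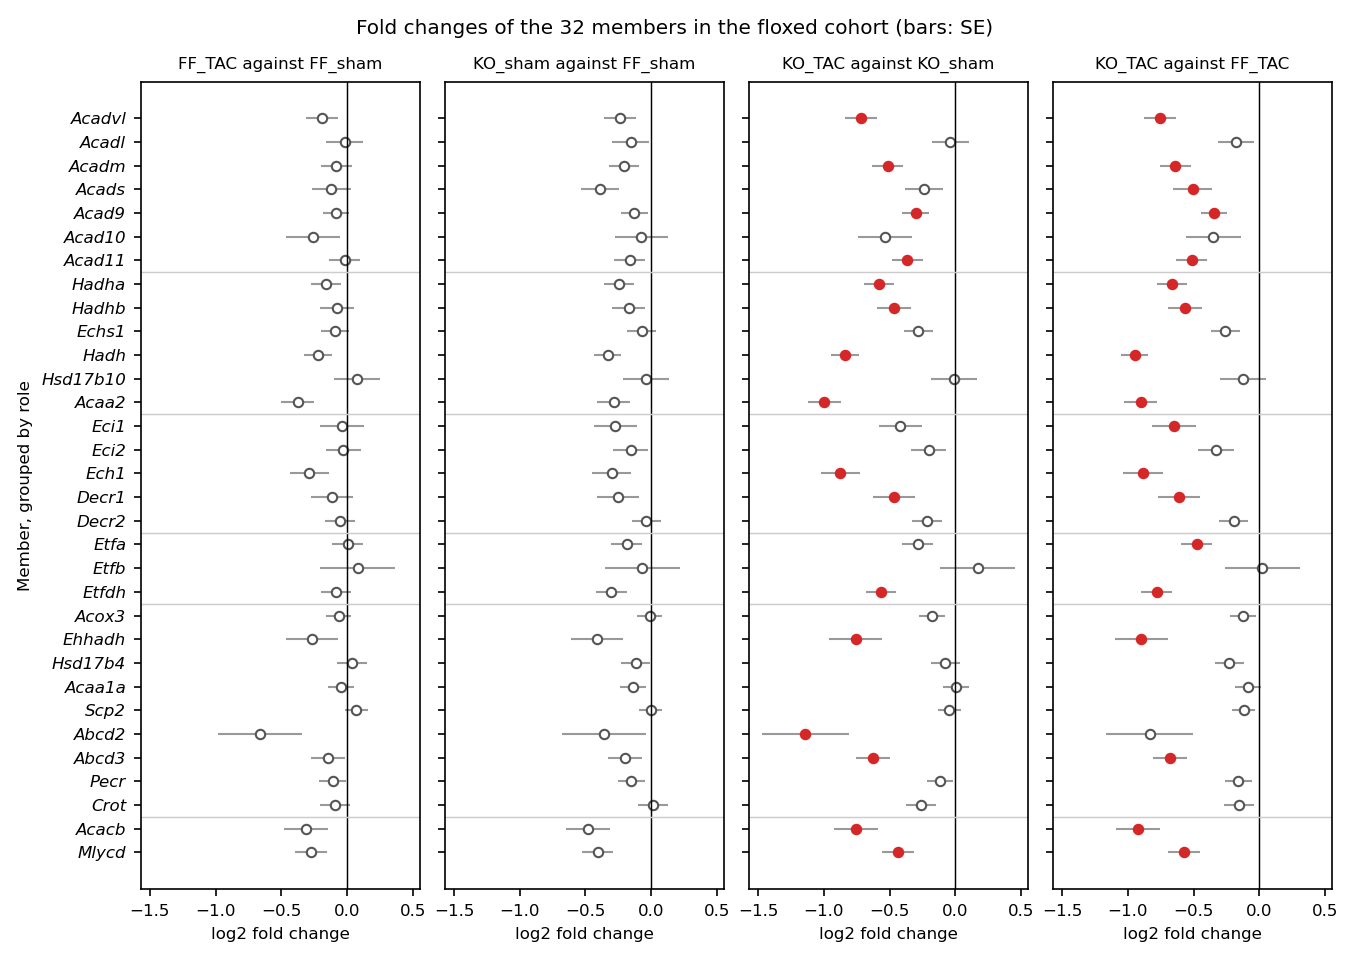
Log2 fold changes of the 32 members, grouped by role, in 4 comparisons of the floxed cohort, with bars of 1 standard error from edgeR. Filled red points passed an adjusted p under 0.05 and open points did not. Called points appear in the panels of KO_TAC against KO_sham (16) and KO_TAC against FF_TAC (18), and the other 2 panels hold none.

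In floxed hearts without the knockout, TAC left no member past the threshold. In FF_TAC against FF_sham 0 of 32 were called by edgeR and 0.00% of all tested genes. DESeq2, another count-based test, called 0 members and 1.12% of all tested genes. At an unadjusted p under 0.05, 3 members were lower, against 11.1% of all genes and 4.44% lower. Acaa2 had a log2 fold change of -0.38 (SE 0.13, edgeR adjusted p = 0.350) and Mlycd one of -0.27 (adjusted p = 0.433), with Hadh the third. Acadm was at -0.08 (SE 0.12) and Hadha at -0.16 (SE 0.11), with edgeR adjusted p = 0.793 and 0.586. Fold changes were negative for 27 of 32 members and for 51.0% of all tested genes, with a median of -0.09 against -0.01 over all genes. Without the 3 libraries, the count was again 0, 0 members had an unadjusted p under 0.05 against 2.20% of all genes, the median was -0.08, and Acaa2 was at -0.23 with edgeR adjusted p = 1.

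The knockout without load gave 0 members called in KO_sham against FF_sham, by edgeR and by DESeq2. Of all tested genes, 0.00% were called by edgeR and 0.0962% by DESeq2. At an unadjusted p under 0.05, 7 members were lower, against 5.22% of all genes and 2.44% lower. Mlycd was at -0.41 (SE 0.12, edgeR adjusted p = 0.820), Hadh at -0.33 (SE 0.10, adjusted p = 0.879), Hadha at -0.24 (SE 0.11, adjusted p = 0.95) and Acadm at -0.21 (SE 0.12, adjusted p = 0.9997). A negative fold change was found for 31 of 32 members and for 49.0% of all tested genes, with a median of -0.18 against 0.00 over all genes. For 6 members (Acads, Etfa, Etfdh, Hadh, Hadha and Mlycd), all KO_sham libraries lay below all FF_sham libraries, which held for 3.55% of all tested genes. Without the 3 libraries, 0 members were called, 6 had an unadjusted p under 0.05 against 5.26% of all genes, and the median was -0.19.

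Whether the load acted differently in knockout than in floxed hearts was tested as an interaction. It called 0 members by edgeR, against 0.0449% of all tested genes, and 9 were lower at an unadjusted p under 0.05, against 13.1% of all genes and 6.54% lower. Hadh had an interaction of -0.62 on the log2 scale (SE 0.15, edgeR adjusted p = 0.108) and Acaa2 one of -0.62 (SE 0.18, adjusted p = 0.156). Acadm and Hadha were at -0.43 and -0.42, both with edgeR adjusted p = 0.278. Without the 3 libraries, 3 members were called: Acaa2 at -0.80 (edgeR adjusted p = 0.0354), Abcd3 at -0.71 (adjusted p = 0.0358) and Hadh at -0.70 (adjusted p = 0.0447), with 5.06% of all genes called. DESeq2 on all libraries called 2, Hadh (adjusted p = 0.00363) and Acaa2 (adjusted p = 0.0364), and 2.42% of all genes. Without KO_TAC 4, edgeR called Hadh (-0.69, adjusted p = 0.045).

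The haemoglobin split bears on these counts, since all 4 KO_TAC libraries were on its low side. All FF_sham libraries were on its high side. A term for the split therefore rests on the libraries labelled KO_sham 2, FF_TAC 2 and FF_TAC 3 against the others of their groups. Their Cpt1a went against their labels, so low haemoglobin and a wrong label cannot be told apart in this term. With the term, edgeR called 14 members in KO_TAC against FF_TAC, 9 in KO_TAC against FF_sham and 4 in KO_TAC against KO_sham. In that order, 7.23%, 1.97% and 1.75% of all tested genes were called. The member medians were -0.47, -0.57 and -0.37 in these comparisons. The latter 4 were Hadh (-0.78), Acaa2 (-0.83), Ech1 (-0.80) and Acadvl (-0.65). With the low libraries alone, KO_TAC against the libraries labelled FF_TAC 2 and FF_TAC 3, 0 members and 0 of 15311 genes were called, while the member median was -0.47 and Hadh was at -0.90 (edgeR adjusted p = 0.202).

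The AAV9 cohort used C57Bl/6 mice and added Cpt1a by vector. The library labelled PBS_sham 3 stood apart: 25 of 32 members were below all 13 other libraries of the cohort, where 35.1% of all 15745 tested genes were below all 13 and 33.0% above. The members were at a median of 33.7% of the others' median. Acadvl, at 67.0 CPM, was at 12.4% of it. Acad10, Etfb and Abcd3 were instead above all 13, with Acad10 at 23.5 against 5.98 to 8.49 CPM, and Acox3, Acaa1a, Abcd2 and Acacb were within the range. All 8 cardiomyocyte markers were below the 13 others in this library, from 10.2% for Actc1 to 67.4% for Tnni3. Its smooth muscle markers were above all others, with Myh11 at 699 against 23.7 to 74.6 CPM, Cnn1 at 131 against 1.27 to 13.4 and Tagln at 9.02 against 0.526 to 1.38. Of the 5 endothelial markers, 4 (Pecam1, Cdh5, Tie1 and Emcn) were above all others too, and the 5 fibroblast markers were within the range. The part of this tissue difference in the members' levels was not tested.

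**Figure D5:**
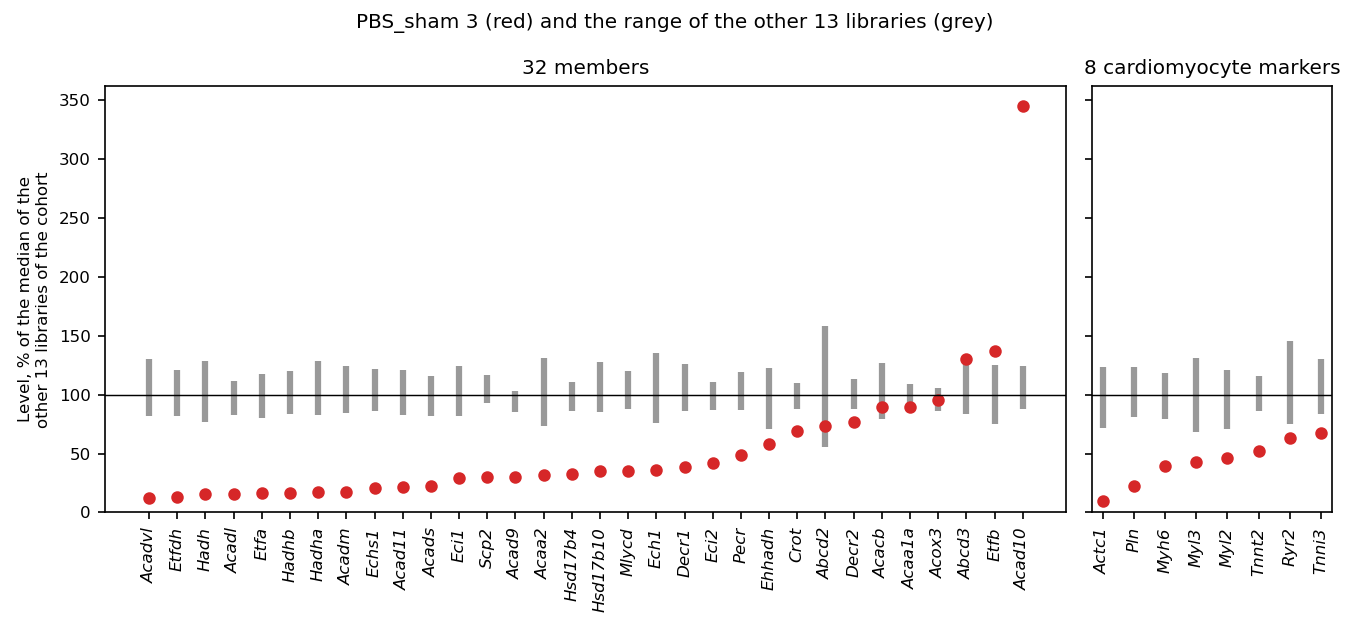
Level of each member in PBS_sham 3 as a percentage of the median of the other 13 libraries of the AAV9 cohort, with grey bars for the range of those 13 and the 8 cardiomyocyte markers in the right panel. Of the 32 members, 25 lay below all 13 other libraries, and Acad10 lay highest at 345%.

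PBS_TAC against PBS_sham called 0 of 32 members by edgeR and by DESeq2, where 0.0318% and 2.35% of all tested genes passed. By edgeR, 2 members had an unadjusted p under 0.05, against 18.5% of all genes. Acadm was at 1310, 971.1 and 198.4 CPM in PBS_sham and 1144, 965.6 and 1073 in PBS_TAC. Hadha was at 1645, 1293 and 261.5 CPM in PBS_sham and 1518, 1259 and 1343 in PBS_TAC. The groups overlapped for both genes, and their log2 fold changes were 0.36 (SE 0.43) for Acadm and 0.36 for Hadha. Without PBS_sham 3 both turned negative, to -0.10 for Acadm and -0.096 for Hadha, and the member median moved from 0.31 to -0.055. Either fit called 0 members, and the one without PBS_sham 3 called 0.509% of all tested genes. Ehhadh was at 0.62 (SE 0.18, edgeR adjusted p = 0.155) and Crot, a peroxisomal acyltransferase, at 0.34 (edgeR adjusted p = 0.188). Without PBS_sham 3, Ehhadh was at 0.51 (edgeR adjusted p = 0.222). Without PBS_sham 1, Ehhadh was the 1 member called (0.72, edgeR adjusted p = 0.0417).

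In AAV_TAC against AAV_sham, which PBS_sham 3 enters only through the shared spread, edgeR called 0 members and 0.00635% of all tested genes. DESeq2 called 0 members too, and 0.743% of all tested genes. Acaa2 was at 853.9, 855.3, 951.4 and 1056 CPM in AAV_sham and 592.5, 597.1, 819.3 and 804.5 in AAV_TAC. It was the 1 member whose groups did not overlap, against 5.79% of all tested genes lower without overlap. Ech1 was at 1110, 1074, 1371 and 1413 CPM in AAV_sham and 830.1, 788.4, 1090 and 1041 in AAV_TAC, and overlapped by 1 AAV_TAC library. Abcd3 had a log2 fold change of -0.26 (edgeR adjusted p = 0.793) and Ech1 one of -0.41 (edgeR adjusted p = 0.877). Acadm was at -0.16 and Hadha at -0.26, and 0 members had an unadjusted p under 0.05, against 7.05% of all genes. With PBS_sham 3 left out of the fit, 6 members were lower at an unadjusted p under 0.05 (Acadvl, Hadha, Hadh, Acaa2, Ech1 and Abcd3), against 16.9% of all genes, and 0 were called while 0.698% of all genes were. Acaa2 was then at -0.40 (SE 0.13, edgeR adjusted p = 0.138).

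The vector in unloaded hearts, AAV_sham against PBS_sham, called 0 members by edgeR, where 0.0127% of all tested genes passed, and 4 had an unadjusted p under 0.05, against 20.7% of all genes. Ehhadh was at 15.1, 13.7, 16.1 and 15.1 CPM in AAV_sham and 10.7, 9.70 and 8.02 in PBS_sham, so the groups did not overlap. Its log2 fold change was 0.67 (edgeR adjusted p = 0.131), and DESeq2 called it (adjusted p = 0.024) with 2.45% of all genes. No overlap was also seen for Acad11 and Acox3, against 5.53% of all tested genes higher without overlap. Crot was at 0.24, Acadm at 0.61 and Hadha at 0.66 on the log2 scale. Without PBS_sham 3, Acadm was at 0.15, Hadha at 0.20, Crot at 0.13 and Ehhadh at 0.56 (edgeR adjusted p = 0.278). The member median was 0.45, and 0.11 without PBS_sham 3, with 0 members and 0.0377% of all tested genes called. Without PBS_sham 1, which leaves PBS_sham 3 as 1 of 2 controls, edgeR called 3 members: Ehhadh (0.77, adjusted p = 0.0251), Decr1 (0.84, adjusted p = 0.0457) and Acad10 (-1.09, adjusted p = 0.0451).

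Under load, AAV_TAC against PBS_TAC called 0 members by edgeR and by DESeq2, where 0.0381% and 0.235% of all tested genes passed. By edgeR, 0 members had an unadjusted p under 0.05, against 3.19% of all genes. Abcd2 was at -0.31, Acaa1a at -0.10, Acadm at 0.09 and Hadha at 0.04 on the log2 scale, and the median was 0.04. The interaction of vector and TAC called 0 members by edgeR, where 0.00635% of all tested genes passed, and 1 member had an unadjusted p under 0.05, against 6.95% of all genes. That member was Ehhadh, at -0.80 (edgeR adjusted p = 0.688) and at -0.69 (edgeR adjusted p = 0.561) without PBS_sham 3. The member median of this interaction moved from -0.41 to -0.075 without PBS_sham 3 and to -0.80 without PBS_sham 1.

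A list of 46 further genes, of which 45 were tested, held the carnitine shuttle, fatty acid uptake and activation, transcriptional regulators (general mitochondrial ones such as Nrf1 and Tfam included), targets of PPAR alpha, and further peroxisomal genes and dehydrogenases, among them Ivd, Gcdh, Acad8 and Acadsb of amino acid breakdown. In KO_TAC against FF_TAC, where 14.3% of all tested genes were called and 6.80% were lower, 19 fell and 2 (Acsl4 and Acsl5, which activate fatty acids to acyl-CoA) rose, by edgeR. In KO_TAC against KO_sham, where 25.8% were called and 11.5% were lower, 19 fell and 2 (Acsl5 and Prkab2, a subunit of the energy sensor AMPK) rose. In KO_TAC against FF_sham, where 33.9% were called and 15.3% were lower, 26 fell and 3 (Acsl4, Acsl5 and Prkab2) rose. With all libraries, 0 genes of this list were called in the other 8 comparisons. Leaving out the 3 libraries whose Cpt1a went against their labels gave 20 lower and 3 higher against FF_TAC, 19 and 2 against KO_sham, 27 and 3 against FF_sham, and 2 and 1 in the interaction. Of all tested genes, 22.4%, 23.4%, 35.2% and 5.06% were then called, in that order. With the haemoglobin term the counts against FF_TAC, KO_sham and FF_sham were 10, 4 and 6 lower and 0 higher. Of all tested genes, 7.23%, 1.75% and 1.97% were called with this term. The counts by sublist that follow are from all libraries without this term. The carnitine shuttle, which carries acyl groups into mitochondria, gave 5 of 6 genes lower against FF_TAC and 5 of 6 against KO_sham. The uptake and activation genes gave 2 of 8 lower and 2 higher against FF_TAC, and 3 lower and 1 higher against KO_sham. The regulators gave 5 and 4 of 12 lower, the further targets of PPAR alpha 2 of 9 in each, and the further peroxisomal and dehydrogenase genes 5 of 7 tested in each. Acot1, an acyl-CoA thioesterase, had a log2 fold change of -2.24 against FF_TAC (SE 0.51, edgeR adjusted p = 0.0100) and -2.20 against KO_sham (SE 0.51, edgeR adjusted p = 0.00856). Ppara, the nuclear receptor that activates many of the members, fell by 1.23 against FF_TAC (SE 0.22, edgeR adjusted p = 0.00297) and by 1.33 against KO_sham (SE 0.22, edgeR adjusted p = 0.00203). Acsl1, the main acyl-CoA synthetase of heart, fell by 1.07 against FF_TAC (SE 0.16, edgeR adjusted p = 0.00113), and Cpt1a itself fell by 1.07 (SE 0.33, edgeR adjusted p = 0.0405) with the libraries labelled FF_TAC 2 and FF_TAC 3 included. Without the libraries that went against their labels, Cpt1a was at -1.56 (edgeR adjusted p = 0.000379), Acot1 at -2.91, Ppara at -1.52 and Acsl1 at -1.27 against FF_TAC. With the haemoglobin term, Cpt1a was at -0.999 (edgeR adjusted p = 0.142) and Acot1 at -1.65 (edgeR adjusted p = 0.085), and neither passed. Prkab2 rose by 1.14 against KO_sham (SE 0.22, edgeR adjusted p = 0.00388). Against FF_sham, Acot1 had a log2 fold change of -3.09 and Cpt1a one of -1.66.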

How the data were processed

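RNA of whole flash-frozen mouse hearts was sequenced as poly(A)-selected, strand-specific, paired-end 100 bp libraries, per the labels' protocols. The authors deposited raw counts per gene and library, and the submitters' processing notes name HISAT2 2.1.0, Subread 1.5.1 and GRCm38; the strand setting and annotation release are not given in the sources used here. GENCODE M21 gave symbols for 55227 of 55487 identifiers, and rows without one held 0.00336% of the counts. Each cohort was fitted apart with edgeR 4.0.16 in R 4.3.3 (TMM, filterByExpr, quasi-likelihood test, Benjamini-Hochberg over 15596 and 15745 genes, called at an adjusted p under 0.05). Alternatives were DESeq2 1.42.0, RLE scaling, no filter, a replicate block, only the groups compared, terms for haemoglobin and Myl7, no mitochondrially encoded genes and leaving out libraries. The members and lists were chosen with earlier results of these data known. Named members were those called (the 8 with the largest fold changes where over 10 were called), or the 2 with the smallest p where fewer than 2 were, plus Acadm and Hadha; per-library values cover 8 members called in most comparisons. Tests were tried on simulated data. The result of 1 further gene outside the members is not reported here. Over 42 pairs of libraries within groups, counts differed by more than sampling noise. For 15 of 32 members an overlapping gene or near-identical copy makes the count uncertain.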

Additional observations from a re-analysis of the deposited data

Results flagged for a closer look

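In KO_sham, 1 library lay far from the other 3 for Ech1: KO_sham 4 was at 915 CPM and the others at 1130 to 1161 CPM, a gap of 0.872 of the whole range of the group. This was 1 of 54 such tests, and chance flags about 1 in 20.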

How the results depend on the processing

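Of the values of named members under the alternatives, 1038 kept their direction and side of the threshold, 22 were no longer past it, 8 newly passed it and 4 changed sign. The sign changes came with libraries left out in turn. In PBS_TAC against PBS_sham, log2 fold changes ran from -0.10 (without PBS_sham 3) to 0.86 (without PBS_sham 1) for Acadm and from -0.096 to 0.83 for Hadha. In AAV_TAC against PBS_TAC, Hadha ran from -0.023 (without PBS_TAC 2) to 0.11 (without PBS_TAC 1), and was at -0.011 without AAV_TAC 3. Members called in KO_TAC against FF_TAC numbered 18 of 32, and 15 to 18 when libraries were left out in turn. With only the groups compared in the fit the count was 10, against 3.79% of all tested genes called. With the haemoglobin-low libraries alone it was 0, as was the count over all genes. In KO_TAC against FF_sham the count was 21, 9 with the haemoglobin term and 20 to 24 with libraries left out. In KO_TAC against KO_sham it was 16, 4 with the haemoglobin term and 10 to 18 with libraries left out. The interaction of knockout and TAC gave 0, 3 without the 3 libraries (chosen after seeing the data), 2 with DESeq2 and 0 to 1 with libraries left out (Hadh, without KO_TAC 4). AAV_sham against PBS_sham gave 0, 1 with DESeq2 and 0 to 3 with libraries left out (3 without PBS_sham 1), and PBS_TAC against PBS_sham 0 to 1. The other comparisons stayed at 0 with libraries left out. The causes were not tested. For the calls without KO_TAC 4 or without PBS_sham 1, the share of all genes called is not given here. With the replicate block the counts were 17 (KO_TAC against FF_TAC), 20 (against FF_sham), 14 (against KO_sham) and 0 in the others. Of all tested genes, 13.6%, 32.6% and 24.9% were then called in the KO_TAC comparisons, in that order, and at most 0.122% in the others. The correlations of same-numbered deviations ran from -0.46 to 0.44 over 33 pairs, 13 above 0.1. In KO_TAC against FF_TAC they were 0.44, 0.28, 0.13 and -0.03, and in KO_TAC against KO_sham -0.37, -0.23, 0.20 and -0.19. Libraries of different numbers were not compared, so these values do not settle whether replicate numbers pair the libraries. Groups of 3 or 4 libraries limit what can be called.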
